A study of Homo sapiens with 3 samples.

Results

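The HOX genes of Caco-2 cells were examined in 3 cultures, 2 depleted of the transcript OCC-1 and 1 control. OCC-1 is listed on the array as C12orf75. The members were the probe sets whose only annotated symbol was a gene of the HOXA, HOXB, HOXC or HOXD cluster. There were 47 such probe sets for 27 genes, among 49293 probe sets that were not array controls. They covered 1 gene of HOXA (HOXA2), 10 of HOXB, 9 of HOXC and 7 of HOXD, and the other HOX genes were not analysed here. A further 2 probe sets that were annotated with 2 HOX genes each were not used, because their signal could not be given to either gene.

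Caco-2 is an established line from a human colorectal cancer whose cells can form a layer like that of absorptive gut epithelium. Knockdown line 1 carried the short hairpin RNA shOCC-1-1, knockdown line 2 carried shOCC-1-2, and the control carried the non-target hairpin shCTRL. All 3 cultures were infected with lentivirus, kept in puromycin (1 µg per ml, 5 days) to select infected cells, and harvested 24 hours after its removal, with 20% serum in the medium. Total RNA of each culture was read on 1 array (n = 2 knockdown lines, n = 1 control), so the lines differ in hairpin as well as culture. Every p-value below rests on the spread between the 2 knockdown lines, moderated by that of all probe sets. The spread of the control could not be measured and enters none of them.

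HOX genes encode transcription factors with a homeodomain, a DNA-binding fold that is much alike across the family. They lie in 4 clusters on different chromosomes, and a gene keeps a number that marks its place in the cluster and its relatives in the other clusters (its paralogs). During development, genes with low numbers are switched on in the head and neck region and those with high numbers towards the tail, the hindgut included. Cells keep such a pattern through Polycomb proteins, which hold silent HOX genes off, and Trithorax proteins, which hold active ones on. HOX proteins bind DNA together with cofactors of the PBX and MEIS families. Here paralogs 1 to 3 are called anterior, 4 to 8 central and 9 to 13 posterior.

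The start regions of HOX genes are shown for a paralog pair with different array signal, HOXC4 and HOXD4, and for the anterior gene HOXB1. In the RefSeq annotation (GRCh38.p14) HOXC4 and HOXC5, neighbours at the anterior end of their cluster, share the same start window, which runs from 250 bases before to 50 bases after the start of transcription. Both genes were above background on all 3 arrays, whereas HOXD4 and HOXB1 were not. The capitals mark the motif CCAAT on either strand, the binding sequence of the factor NF-Y.

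HOXC4 and HOXC5, chr12:54016638-54016937, plus strand: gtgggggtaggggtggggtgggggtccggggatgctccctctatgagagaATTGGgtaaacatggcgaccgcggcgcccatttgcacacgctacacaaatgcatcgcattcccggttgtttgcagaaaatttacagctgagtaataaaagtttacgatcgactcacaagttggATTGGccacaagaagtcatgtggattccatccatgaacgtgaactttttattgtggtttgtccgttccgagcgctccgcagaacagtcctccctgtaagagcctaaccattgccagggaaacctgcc
HOXD4, chr2:176151300-176151599, plus strand: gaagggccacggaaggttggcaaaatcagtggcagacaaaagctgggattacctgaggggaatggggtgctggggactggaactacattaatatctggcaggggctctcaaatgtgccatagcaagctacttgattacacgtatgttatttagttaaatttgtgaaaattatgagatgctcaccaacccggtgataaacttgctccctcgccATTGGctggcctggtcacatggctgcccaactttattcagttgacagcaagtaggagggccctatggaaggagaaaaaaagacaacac
HOXB1, chr17:48530962-48531261, minus strand: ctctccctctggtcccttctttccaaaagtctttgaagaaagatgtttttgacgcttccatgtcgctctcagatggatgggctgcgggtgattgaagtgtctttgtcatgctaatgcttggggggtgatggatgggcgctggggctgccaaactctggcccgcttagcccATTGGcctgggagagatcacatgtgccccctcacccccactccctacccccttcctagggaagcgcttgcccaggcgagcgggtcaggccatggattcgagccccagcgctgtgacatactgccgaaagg

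The RefSeq table held such a window for 10 of the 27 genes, 9 of them different. CCAAT, searched as these letters on both strands, was present in 8 of the 9 windows, against 34.6% of all 34943 windows of this length. The shared window of HOXC4 and HOXC5 held 2 copies, and those of HOXD4 and HOXB1 held 1 each. The window of HOXA2 held the most, 4 copies, and that of HOXD8 held none. The motif TATAAA was present in 1 of the 9 windows, that of HOXD13, against 11.6% of all windows. The window of HOXC4 and HOXC5 had 15 CG dinucleotides and 51.7% G or C, that of HOXD4 had 4 and 47.3%, and that of HOXB1 had 11 and 58%. The median was 19 over the 9 HOX windows and 14 over all windows. HOXC4 and HOXC5 were the only genes above background matched to a window, so windows with and without signal could not be compared, and a match of letters does not show that a factor was bound.

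Array-wide checks came first. OCC-1 itself had an intensity of 518 in line 1 and 397 in line 2, against 1219 in the control (log2 difference -1.43 ± 0.27, SD, n = 2 knockdown lines; limma adjusted p = 2.77e-05). The median intensity of all probe sets was 182.5 in line 1, 183.6 in line 2 and 185.5 in the control. Of 10 fixed markers of colon epithelium, 8 were above background, among them VIL1, EPCAM, CDH1 and KRT8, while KRT20 and LGALS4 were not. By limma EPCAM and CDH1 were higher in the lines (log2 differences 0.55 and 0.39, with the other CDH1 probe set at -0.06 and -0.08) and FABP1 was lower (-0.39), and the part of such shifts in the HOX values was not tested. Endothelial markers were above background for 0 of 6 genes, leukocyte markers for 2 of 6 (LCP1 and TYROBP) and fibroblast markers for 3 of 7 (COL1A1, COL3A1 and PDGFRB). PTPRC, the defining surface protein of leukocytes, and DCN, a matrix protein of fibroblasts, were not above background. In bulk cultures, fewer cells with a transcript and less of it per cell cannot be told apart.

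The first question was which HOX genes gave a signal above background in Caco-2 cells. A probe set counted as above background when its intensity exceeded, on all 3 arrays, the 95th percentile of 359 probe sets for olfactory receptors, a gene family that is mostly silent outside the nose. That threshold was an intensity of 199.8 in line 1, 199.3 in line 2 and 221.9 in the control. By this rule 8 of 27 HOX genes (29.6%) were above background with at least 1 probe set, against 55.6% of all 18132 genes. Among probe sets the count was 9 of 47 (19.1%), against 42.4% of all probe sets. These shares are descriptions and were not tested. Intensities of different probe sets depend on the probes as well as on the RNA, so no gene's level is ranked against another's.

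**Figure D1:**
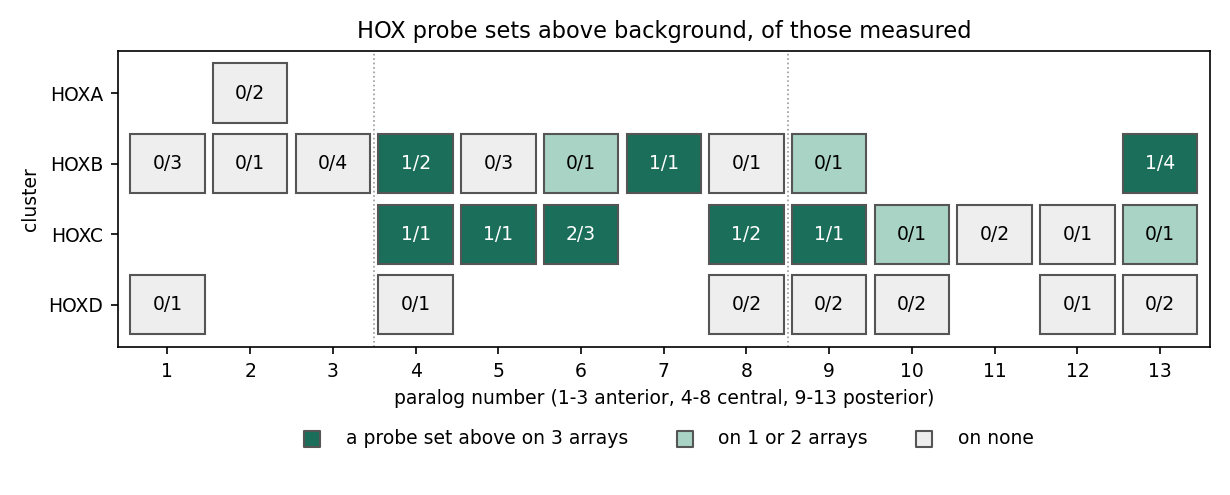
HOX genes by cluster (rows) and paralog number (columns), with the number of probe sets above background on all 3 arrays over the number measured. Dark cells form an unbroken run of the measured genes from HOXC4 to HOXC9, the HOXA and HOXD rows have none, and empty places hold no probe set used here.

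In HOXC, 5 neighbouring genes were above background and the 4 genes beyond them were not. The share was 55.6% of the HOXC genes, the same as the 55.6% of all 18132 genes. HOXC4, a gene best known from lymphoid cells and the neck region, gave 246 in line 1 and 212 in line 2, against 272 in the control. HOXC5 gave 319 and 331 in lines 1 and 2, against 346 in the control. All values of both genes lay above the thresholds, HOXC4 in line 2 by little.

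HOXC6, a central HOX gene that takes part in thoracic patterning, was read by 3 probe sets. The first (11737135_a_at) gave 1074 in line 1 and 1049 in line 2, against 1104 in the control. The next (11740290_a_at) gave 1046 and 1042 in lines 1 and 2, against 955 in the control. The remaining HOXC6 probe set (11737136_a_at) was not above background on any array, with 108 and 110 in lines 1 and 2, against 112 in the control. The RefSeq gene table gives HOXC4, HOXC5 and HOXC6 a common gene start, so their transcripts can overlap, and an array cannot assign the signal of shared sequence to any of these genes.

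HOXC8, which shapes the thoracic skeleton in mice, had 1 of 2 probe sets above background. That probe set gave 828 in line 1 and 684 in line 2, against 858 in the control, and the other gave 179 and 166 in lines 1 and 2, against 178 in the control. HOXC9, the first posterior gene of the cluster, gave 241 and 234 in lines 1 and 2, against 266 in the control. For HOXC9 and the HOXC8 probe set above background, the control was highest and line 2 stood lower than line 1.

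The posterior genes beyond HOXC9 did not pass. HOXC10, a gene of the lumbar region, gave 205 in line 1 and 190.3 in line 2, against 203 in the control, and exceeded the threshold in line 1 only. HOXC13, needed for hair and nails, lay at the threshold, with 199.8 in line 1 and 218 in line 2, against 220.03 in the control, and exceeded it in line 2 only. The 3 probe sets of HOXC11 and HOXC12 were above background on no array.

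In HOXB, 3 of 10 genes (30%, against 55.6% of all genes) were above background and they were not neighbours. HOXB4, known for promoting the growth of blood stem cells, had 1 of 2 probe sets above, with 389 in line 1 and 400 in line 2, against 466 in the control. HOXB7, read by 1 probe set and often studied in tumours of epithelium, gave 604 and 610 in lines 1 and 2, against 561 in the control. HOXB13, the most posterior gene of the cluster and a marker of prostate and distal colon, had 1 of 4 probe sets above background on all arrays. That one (11727053_at) gave 211 in line 1 and 228 in line 2, against 261 in the control. A pair of further HOXB13 probe sets were above background in line 1 and the control and just below the threshold in line 2, and the last was above on no array.

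The other HOXB genes included HOXB6, which was above background in the control alone, and HOXB9, which was above it in line 2 alone with 206. The anterior genes HOXB1 and HOXB2, which pattern the hindbrain, and HOXB3 were above background on no array, with 8 probe sets in all. HOXB5 (3 probe sets) and HOXB8 (1 probe set) were not above it on any array either. PRAC1, a small gene between HOXB9 and HOXB13 that is known from prostate and distal colon, was looked at after these values had been seen. It gave 111 in line 1 and 105 in line 2, against 120 in the control, below the thresholds.

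No HOXD probe set exceeded a threshold on any array. The 11 probe sets of HOXD1, HOXD4, HOXD8, HOXD9, HOXD10, HOXD12 and HOXD13 ranged from 67.5 to 187 in line 1 and from 69.3 to 192.9 in line 2, against 73.7 to 194.2 in the control. HOXD13, the gene at the posterior end that is needed for digits and, in mice, for the anal sphincter, had 2 probe sets at 87.2 and 88.3 in line 1 and 91.7 and 86.8 in line 2, against 87.1 and 92.1 in the control. HOXA2, which patterns the middle ear and hindbrain, had 2 probe sets between 113 and 129 in the lines, against 114 and 127 in the control. A signal below the threshold does not show that a transcript was absent, since the arrays keep a background of similar size.

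By position, 0 of 5 anterior genes, 6 of 11 central genes (54.5%) and 2 of 11 posterior genes (18.2%) were above background, against 55.6% of all genes. This split depended on the threshold, since at the 90th percentile 2 anterior genes (HOXB1 and HOXB3), 7 central and 7 posterior genes passed, and at the median of all probe sets 1, 6 and 6. The anterior genes measured belonged to 3 clusters, with HOXA2, HOXB1, HOXB2, HOXB3 and HOXD1. At paralog position 4, HOXB4 and HOXC4 were above background and HOXD4 was not. At position 8, HOXC8 was above it, and HOXB8 and HOXD8 were not.

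The second question was whether HOX genes differed between the OCC-1 knockdown lines and the control. Under a size rule, a difference of 1.5-fold or more in 1 direction shared by the lines, 0 of 47 HOX probe sets were called in either direction, where 0.718% of all probe sets were higher and 0.0507% lower in both lines. A model across all 49293 probe sets (limma, knockdown minus control, adjusted p at or under 0.05) called 3 HOX probe sets lower and 0 higher. Among all probe sets the same model called 2.72% lower and 7.02% higher, and the share of HOX probe sets called lower was 6.38%, which counts HOXB13 by 2 probe sets. With the brightest probe set of each gene in the fit, limma called 1 of 27 HOX genes lower (3.70%), beside 713 of 18132 genes in all (3.93%). At an unadjusted limma p of 0.05 or less there were 10 of 47 HOX probe sets, beside 11477 of 49293 probe sets in all (23.3%). The 3 calls belonged to HOXB6 and HOXB13.

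HOXB6, a central HOX gene expressed in lung and blood cell precursors, fell in the knockdown lines. Its 1 probe set gave 167 in line 1 and 170.2 in line 2, against 237 in the control, so both lines lay well under the control value. The log2 difference was -0.49 ± 0.02 (SD, n = 2 lines; limma SE 0.07, adjusted p = 0.0011), a decrease of 1.41-fold in line 1 and of 1.39-fold in line 2. Of the 47 probe sets it was the only one past 1.3-fold in both lines, a size that 0.375% of all probe sets reached downwards and 2.86% upwards. Both knockdown values were below the background thresholds, and with them set at the thresholds the decrease was 1.19-fold. The control array had a higher threshold (221.9, against 199.8 and 199.3 in lines 1 and 2). The 1.19-fold therefore includes a difference in background between arrays and is not a lower bound for the transcript.

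HOXB13 fell by 2 of its 4 probe sets. The first (11727052_at) gave 212 in line 1 and 195.7 in line 2, against 271 in the control, a log2 difference of -0.41 ± 0.08 (SD, n = 2 lines; limma SE 0.08, adjusted p = 0.0050). The next (11727054_at) gave 200.03 in line 1 and 195.3 in line 2, against 255 in the control, a difference of -0.37 ± 0.02 (SD, n = 2 lines; limma SE 0.07, adjusted p = 0.0070). Both line 2 values were just below the background threshold. With them set at the threshold, the mean decrease over the lines was 1.32-fold for 11727052_at and 1.28-fold for 11727054_at. As for HOXB6, the higher threshold of the control array (221.9) means that these are not lower bounds. The probe set that was above background on all arrays had a difference of -0.25 ± 0.08 (SD, n = 2 lines) and was not called (limma adjusted p = 0.064). The dimmest gave 105 and 117 in lines 1 and 2, against 121 in the control (limma adjusted p = 0.41). All 4 were lower in both lines, but they read the same RNA extracts and are not independent replicates.

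**Figure D2:**
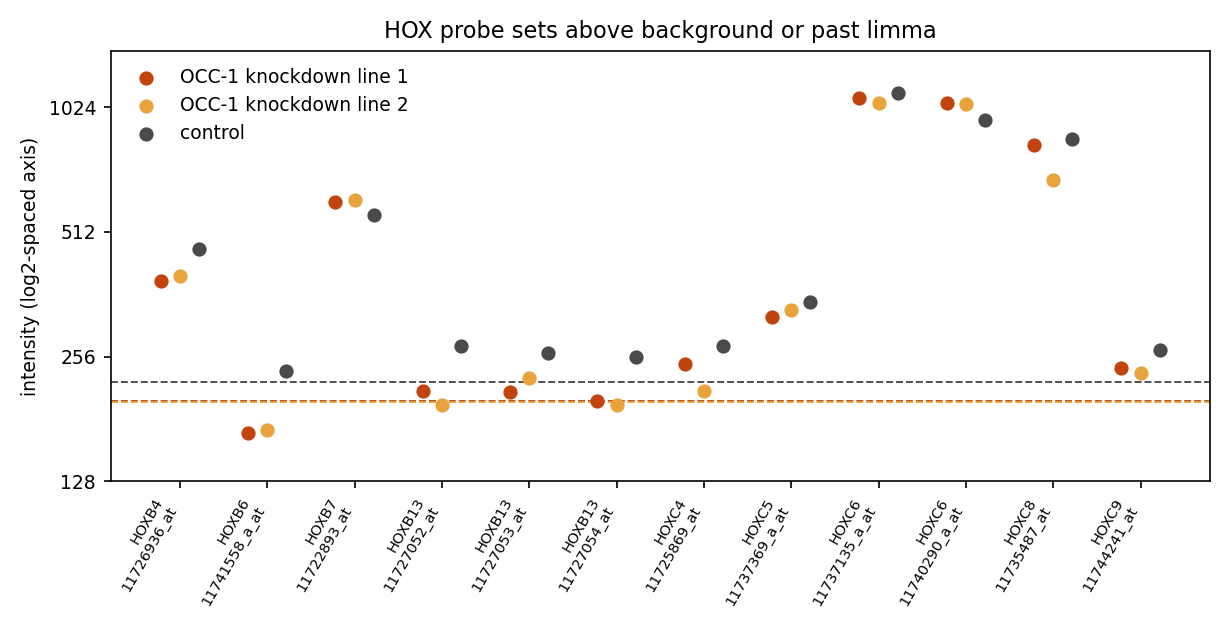
Intensity (log2-spaced axis) of the 9 HOX probe sets above background and the 3 called by limma in line 1, line 2 and the control, with a dashed line for the background threshold of each array. The control point of HOXB6 and of the HOXB13 probe sets stands above both knockdown points, while HOXB7 and 1 HOXC6 probe set have the control lowest.

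None of the 9 HOX probe sets above background on all arrays was called by limma. HOXB4 came nearest, at 83.4% of control in line 1 and 85.8% in line 2 (log2 difference -0.24 ± 0.03, SD, n = 2 lines; limma adjusted p = 0.061), and it was called after quantile normalization (-0.26). HOXC4 reached 90.5% of control in line 1 and 77.96% in line 2 (limma adjusted p = 0.11). HOXC8 was at 96.5% and 79.7% (limma adjusted p = 0.28), with the larger deviation in line 2 for both genes. HOXC9 reached 90.5% in line 1 and 87.9% in line 2 (limma adjusted p = 0.21), and HOXC5 at 92.3% and 95.6% (limma adjusted p = 0.52).

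The remaining members above background lay close to the control. HOXB7 was at 107.8% of control in line 1 and 108.8% in line 2 (limma adjusted p = 0.39). The HOXC6 probe sets went different ways, 1 with log2 differences of -0.04 and -0.07 in lines 1 and 2 and the other with 0.13 in both (limma adjusted p = 0.70 and 0.33). HOXB3 also held opposite readings, all below background. Its probe set 11750898_a_at gave 108 in line 1 and 106 in line 2, against 125 in the control, and 11758251_s_at gave 177 and 181 in lines 1 and 2, against 153 in the control (limma adjusted p = 0.078 and 0.074).

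HOX probe sets were more often lower than higher. Of the 47, 32 were lower and 6 higher in both lines, and 9 went different ways, where 48.1% of all probe sets were lower and 30.4% higher in both lines. In percent, 68.1% of HOX probe sets were lower, and the count of 32 became 27 after cyclic loess, 29 after quantile normalization and 31 after normexp background correction. The median log2 difference over the HOX probe sets was -0.08 in line 1 and -0.05 in line 2, against -0.04 and -0.02 over all probe sets. Over the 9 HOX probe sets above background it was -0.12 and -0.19, against -0.01 and -0.02 over all probe sets above background. Among HOX probe sets not above background 25 of 38 were lower in both lines, where 50.1% of all such probe sets were, and among those above background 7 of 9, where 45.5% of all such probe sets were. By cluster, 15 of 21 HOXB, 10 of 13 HOXC and 7 of 11 HOXD probe sets were lower in both lines, and 0 of 2 for HOXA2. By position, 4 of 11 anterior, 12 of 18 central and 16 of 18 posterior probe sets were lower in both lines, shares that were not tested.

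Part of this range was also covered by the arrays' background controls, 23 probe sets that match no transcript and are named by the number of G or C bases in their probes. Those with 15 to 25 such bases were lower than control in line 1 by log2 differences from -0.12 to -0.37 and in line 2 from -0.10 to -0.23. Those with 3 to 14 lay between -0.09 and 0.06 in line 1 and between -0.09 and 0.04 in line 2. Among HOX probe sets above background, those of HOXB4, HOXB13 (11727053_at), HOXC5, HOXC9 and 1 of HOXC6 (11737135_a_at) were within the span of all 23 controls in both lines. Those of HOXC4 and HOXC8 were within it in line 1 only. HOXB6 was lower than any of the controls in both lines, and the called HOXB13 probe sets were lower than any of the controls in line 2 only. The sources used here do not give the bases of the HOX probes, and the part of base composition in these differences was not tested.

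**Figure D3:**
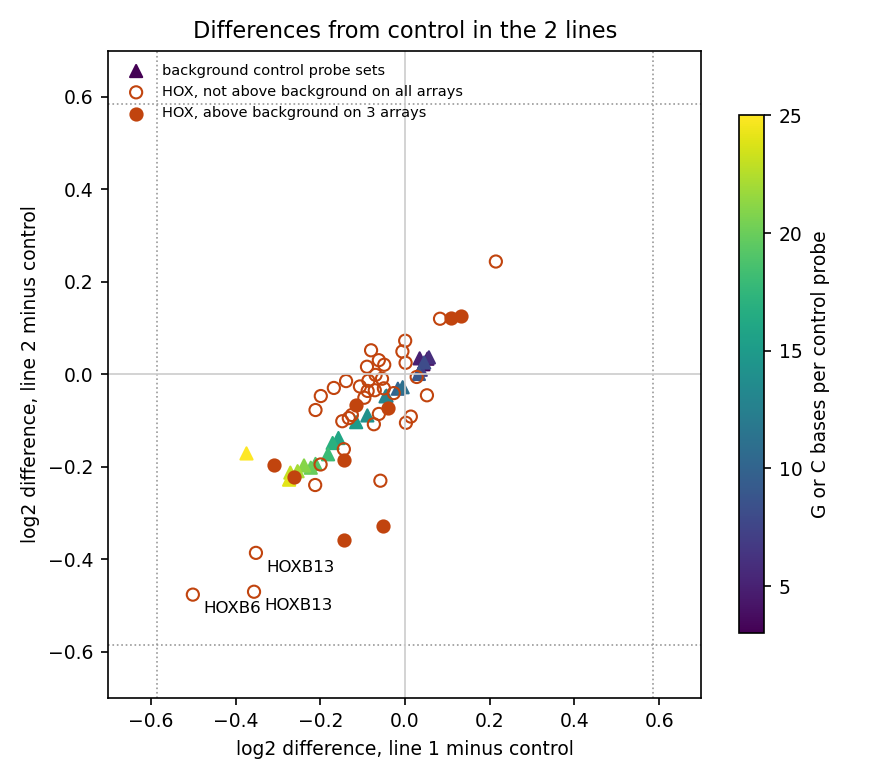
Log2 difference from control in line 1 (horizontal) and line 2 (vertical) for the 47 HOX probe sets (circles) and the 23 background controls (triangles, coloured by G or C bases). Dotted lines mark 1.5-fold, which no HOX point passes, and HOXB6 and 2 HOXB13 probe sets lie lowest on the diagonal.

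Genes on either side of the clusters were set beside the HOX genes, 5 protein-coding genes on each side by RefSeq order, each by its brightest probe set. These flanks hold related families that were duplicated together with the clusters, among them CBX1, CBX3 and CBX5 (heterochromatin proteins), HNRNPA1, HNRNPA2B1 and HNRNPA3 (RNA-binding proteins) and ATP5MC1, ATP5MC2 and ATP5MC3 (a mitochondrial ATP synthase subunit). Of 39 neighbours measured, 28 were above background, 12 rose by limma and 0 fell, where 7.89% of all genes rose and 3.55% fell. Over all genes a smaller share, 10071 of 18132, was above background. An unadjusted limma p of 0.05 or less was more frequent above background (7847 of 20910 probe sets) than not (3630 of 28383). The share over all genes is therefore not a like comparison. By size 3 rose, where 0.849% of all genes did, and 0 fell. Of the 47 HOX probe sets, 9 of them above background, 0 were called higher, where 7.02% of all probe sets were. The neighbours are counted by gene and the HOX members by probe set, so these counts are not alike.

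ATP5MC1, beyond the HOXB13 end of HOXB, had 3261 in line 1 and 3166 in line 2, against 1588 in the control (log2 difference 1.02 ± 0.03, SD, n = 2 lines; limma adjusted p = 1.5e-05). HNRNPA2B1, beside HOXA, had 3256 and 3224 in lines 1 and 2, against 1982 in the control (0.71 ± 0.01, SD, n = 2 lines), and the other HNRNPA2B1 probe set differed by 0.00 and -0.01. AGPS, an enzyme of ether lipid synthesis near HOXD1, had 795 and 827 in lines 1 and 2, against 493 in the control (0.72 ± 0.04, SD, n = 2 lines), and its 4 other probe sets had medians of 0.01 and -0.04. ATP5MC1 had no other probe set. The ATP5MC genes did not move together, since ATP5MC2 stood at -0.14 in line 1 and -0.23 in line 2. ATP5MC3, added after its values had been seen, stood at 0.03 and 0.04. By contrast HNRNPA1, HNRNPA2B1 and HNRNPA3 were each called higher by limma.

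Further neighbours that rose by limma were NFE2L3, CBX3 and HIBADH beside HOXA, CBX1 and CALCOCO2 beside HOXB, HNRNPA1 beside HOXC, and ATF2, HNRNPA3 and NFE2L2 beside HOXD. CBX3 was higher by 0.42 and 0.45 in lines 1 and 2, with other probe sets at 0.46 and 0.47. HNRNPA1 was higher by 0.26 and 0.31, with other probe sets at 0.43 in both lines. For HIBADH, CALCOCO2, ATF2 and NFE2L2 the median of the other probe sets was between -0.20 and 0.00. Immediately beside the clusters, SKAP2 stood at -0.22 and -0.24 (its other probe sets at 0.24 and 0.04) beside HOXA and SMUG1 at -0.04 and -0.03 beside HOXC.

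**Figure D4:**
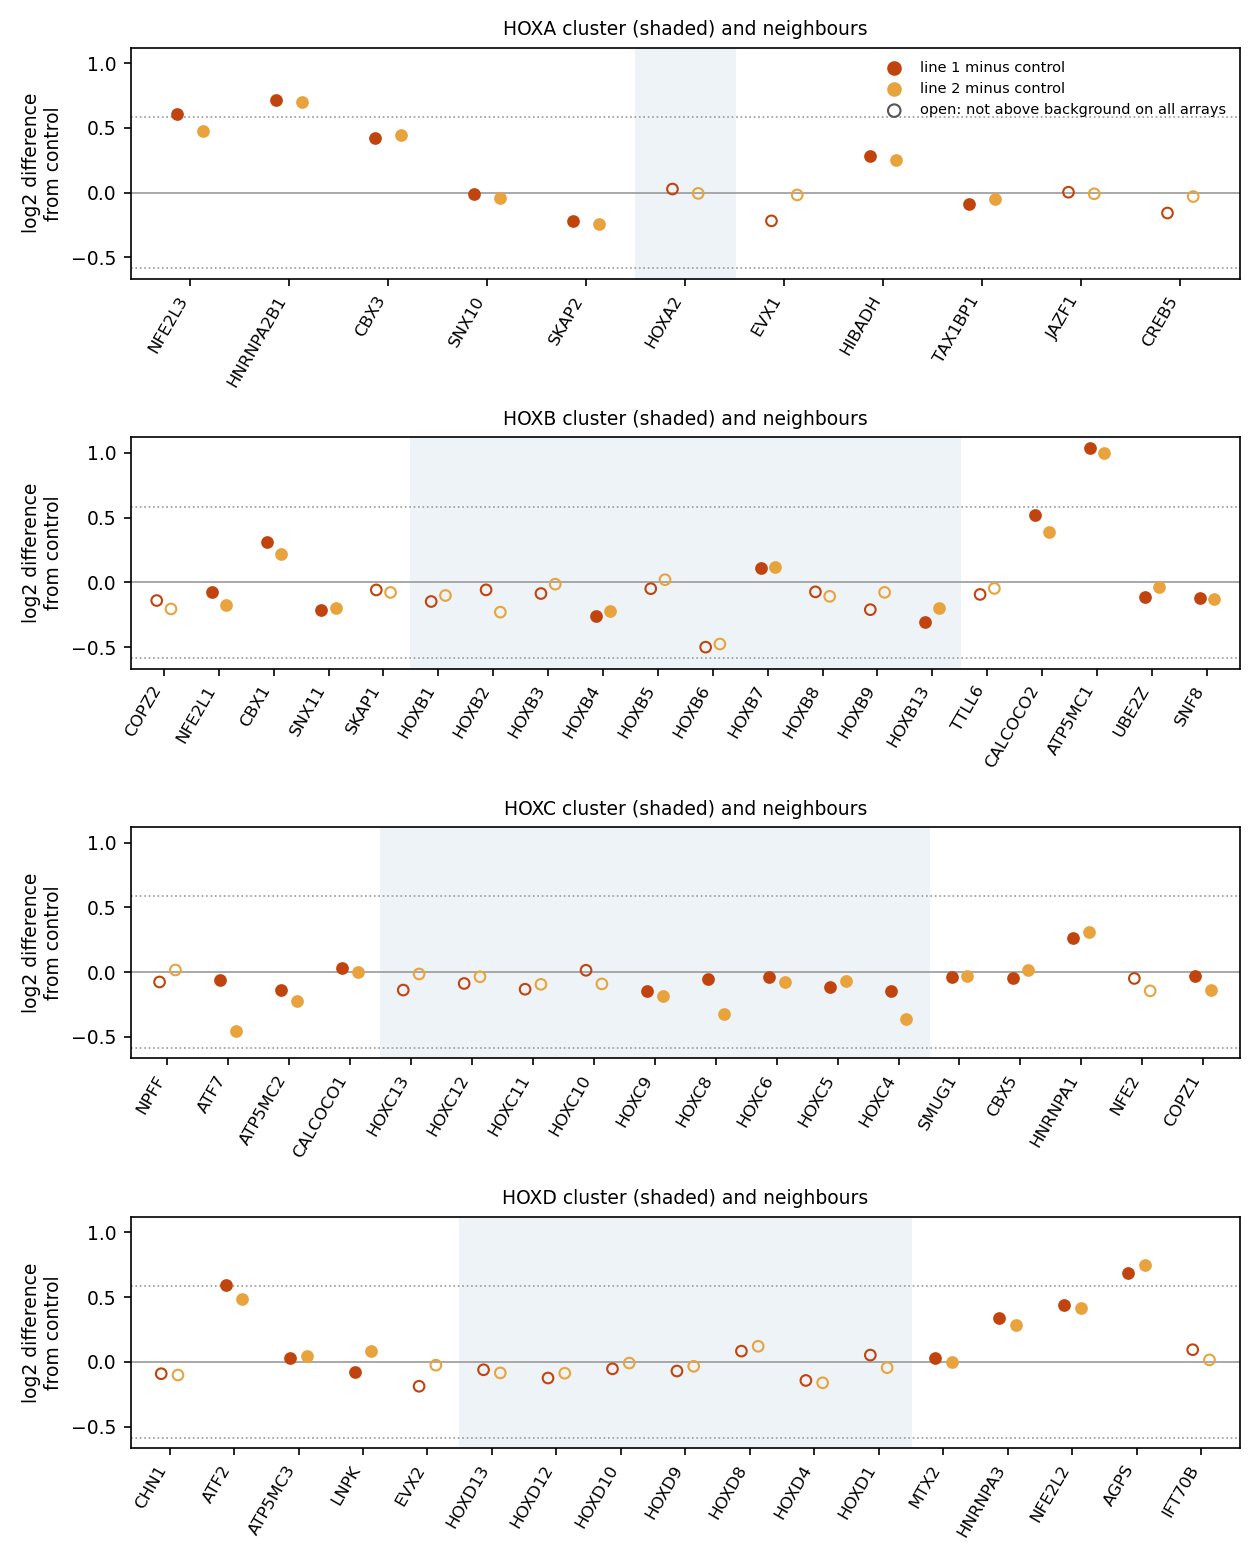
Log2 difference from control in line 1 and line 2 for the brightest probe set of each HOX gene (shaded) and of up to 5 measured neighbours on each side, in chromosome order, with open points for probe sets not above background on all arrays. Dotted lines mark 1.5-fold, which HNRNPA2B1, ATP5MC1 and AGPS pass in both lines and no HOX gene does.

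HOX cofactors were measured for 8 of the 9 genes fixed for that list, and 5 were above background. In this and the following lists each gene was counted by its brightest probe set only. By that rule 10071 of all 18132 genes were above background, and limma called 7.89% higher and 3.55% lower. MEIS2, which binds DNA beside HOX proteins, rose, with 533 in line 1 and 509 in line 2, against 368 in the control (log2 difference 0.50 ± 0.05, SD, n = 2 lines; limma adjusted p = 0.0011). Its 4 other probe sets had medians of -0.10 and -0.06, so the increase was read by the brightest probe set and not by these. MEIS1, named after its value had been seen, was the other cofactor called higher by limma (adjusted p = 0.026), with 163 and 168 in lines 1 and 2, against 135 in the control, all below background. PBX2 stood at 0.16 and 0.14 in lines 1 and 2 and PBX3 at 0.23 and 0.10, neither called by limma. Limma called no cofactor lower, and PKNOX2 stood at -0.20 and -0.04.

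Of the Polycomb list, 13 of 17 genes were measured, all 13 above background, with a median log2 difference of 0.13 in line 1 and 0.11 in line 2, against -0.05 and -0.02 over all 18132 genes. SUZ12, a core subunit of the complex that methylates histone H3 at silent HOX genes, rose, with 1906 in line 1 and 1849 in line 2, against 1297 in the control (0.53 ± 0.03, SD, n = 2 lines; limma adjusted p = 0.000675). The methyltransferase EZH2 rose as well, with 514 and 513 in lines 1 and 2, against 380.2 in the control (limma adjusted p = 0.0024). Other probe sets of SUZ12 had medians of 0.24 and 0.12, and those of EZH2 0.00 and 0.03. EED, the remaining core subunit, stood at 0.21 and 0.24 and was not called (limma adjusted p = 0.082), with other probe sets at 0.51 and 0.55. By its brightest probe set no Polycomb gene passed 1.5-fold in both lines, and none fell by limma. Other probe sets were not counted. The 2 of 13 genes called higher stand beside 7.89% of all genes.

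Of the Trithorax list and the demethylases KDM6A and KDM6B, which remove the Polycomb mark, 13 genes were measured, 12 above background. By the brightest probe set of each gene, limma called 0 in either direction. Other probe sets of these genes were not counted, and their median was largest for MLLT3, at 0.41 in line 1 and 0.34 in line 2. The methyltransferase KMT2A stood at -0.12 in line 1 and -0.07 in line 2, and PSIP1, which tethers KMT2A to chromatin, at 0.31 and 0.13. Retinoic acid, a classical inducer of HOX genes, acts through receptors, and of 11 genes for such receptors and retinoid enzymes 7 were above background and limma called 0. RARG stood at -0.20 and -0.07. Among the ParaHox, CDX and EVX genes 2 of 8 were above background and limma called 0. Over all genes limma called 7.89% higher and 3.55% lower, so 0 calls in lists this small say little. CDX2, the intestinal regulator that activates HOX genes in the embryo, gave 1281 in line 1 and 1223 in line 2, against 1258 in the control.

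Noncoding RNAs of the clusters were represented by HOXB-AS3 alone among the 16 listed. It gave 120.1 in line 1 and 124.1 in line 2, against 129.6 in the control, below the background thresholds, and the other 15 were not analysed here.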

How the data were processed

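Total RNA of 3 Caco-2 cultures was measured, biotin-labelled as cRNA per the labels. The authors deposited 1 linear intensity per probe set and array (lowest 50.1, highest 19619), and the submitters' processing notes name RMA without version or settings. Background correction and scaling are not given in the sources used here, and the number of arrays limits precision. Intensities were converted to log2 with no further normalization. Gene names came from the platform annotation (44994 probe sets with 1 gene symbol, 1832 with several, 2473 with none, 102 array controls), and 0 symbols changed on lookup of their gene identifiers in RefSeq (GRCh38.p14).

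limma 3.58.1 in R 4.3.3 (lmFit, eBayes, Benjamini-Hochberg, two-sided) was fitted to 49293 probe sets without a filter, with 1 residual degree of freedom (12.7 after moderation). The fit takes the spread of the single control as equal to that of the knockdown lines. The size rule and the fit were tested on simulated data in which the control varied like the lines, so that assumption was not tested. Python 3.11.15, numpy 2.4.6, pandas 2.3.3 and matplotlib 3.10.9 were used. The members and gene lists were chosen with earlier results of these data known. HOX genes were named if above background, past the size rule or limma, or read differently by their probe sets, and from each other list up to 5 genes, those past the size rule first, then by size of difference among genes above background. Normalization, background correction, thresholds, filters and probe set choice were varied.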

Additional observations from a re-analysis of the deposited data

How the results depend on the processing

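The count of 8 HOX genes above background moved with the threshold. It was 4 at the 99th percentile of the olfactory receptor probe sets (HOXB4, HOXB7, HOXC6 and HOXC8), 16 at the 90th percentile, which added HOXD10 and 7 genes of HOXB and HOXC, and 13 at the median of all probe sets. It was 7, without HOXB13, when the brightest probe set and no fewer passing than failing probe sets were required, and 8 without either knockdown line. The HOX count of 0 past 1.5-fold became 1 at 1.3-fold (HOXB6) and was 0 under the 8 other alternatives run. limma called 5 HOX probe sets after quantile normalization, where HOXB4 was added as lower and HOXB3 as higher, 4 after cyclic loess (HOXB3 added as higher) and with an intensity trend (another HOXB3 probe set added as lower), and 1 with the brightest probe set of each gene, that of HOXB6, since 1 HOXB13 probe set then stays in the fit. HOXB6 was called in all 7 fits and both HOXB13 probe sets in all but the fit with the brightest probe set. Over all probe sets the size rule gave 379, but 1593 at 1.3-fold, 22 at 2-fold and 172 with the brightest probe set of each gene, and limma gave 4798, or 2208 with the latter. The median HOX difference in lines 1 and 2 was -0.041 and -0.022 after cyclic loess (all probe sets -0.0039 and 0.0016), -0.055 and -0.023 after quantile normalization (all -0.021 and -0.012), -0.116 and -0.186 over the 9 probe sets above background, and in line 2 -0.086 over the brightest probe set of each gene. Where not stated, the cause was not tested. The 16 limma calls among the other pathway genes were 15 to 18 in alternatives chosen after seeing the data. No paired analysis was possible because there was 1 control array. Signals near background limit every HOX value under the thresholds.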
